A study of Mus musculus with 42 samples.

Results

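Messenger RNA was compared between leukaemia cells of mice given 5+3 chemotherapy and leukaemia cells of mice given vehicle, all on the standard amino acid (AA) diet. The comparison holds the 4 mRNA libraries labelled AA 5+3 and the 5 labelled AA vehicle, 9 of the 42 libraries of the series, chosen by their labels alone. The cells were acute myeloid leukaemia cells with the MLL-AF9 fusion, labelled WT, which carried luciferase under a β-actin promoter and GFP under what the labels call the ubiquitin transporter. They came from 1 terminally ill mouse and were grown outside the body with SCF, IL-3 and IL-6, so that all 9 mice carried 1 leukaemia. Male recipients aged 8 to 10 weeks, of a strain not given in the sources used here, received leukaemia cells by vein with no preconditioning and so kept their own marrow cells. The 5+3 mice received cytarabine at 100 mg/kg once a day for 5 days and doxorubicin at 3 mg/kg once a day on the first 3 days. The vehicle mice received PBS by the same intraperitoneal route. Mice were killed when chemotherapy had its maximum effect, red cells were lysed, and viable GFP-positive cells were sorted from crushed bones. Of each 20 µl lysate, 2 µl went into a Smart-seq2 library, which copies polyadenylated RNA to full length. The mice of the vehicle group have names ending in B, which no 5+3 mouse has and which the labels do not explain. If the letter marks a batch, that batch and the treatment cannot be told apart.

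MLL-AF9 joins the DNA-binding end of the histone methyltransferase MLL to the elongation factor AF9 and keeps the homeobox genes Hoxa9 and Meis1 transcribed, which holds myeloid progenitors in a dividing state. Such cells resemble granulocyte and monocyte progenitors, and those that mature take on either granulocyte genes, such as those of the primary granules, or monocyte genes, many of which are driven by the transcription factor IRF8. Cytarabine is a nucleoside that stalls DNA synthesis once phosphorylated, and doxorubicin traps topoisomerase II on DNA. Both damage DNA, and p53 is known to answer with transcription of Cdkn1a, Mdm2, Phlda3 and other targets.

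The 9 libraries held 30996200 to 55165984 counts, of which protein-coding genes took 89.7% to 93.7%, and 12647 protein-coding genes were tested. Hoxa9 stood at 351 to 500.4 CPM (counts relative to the protein-coding total of the library, scaled by TMM) in every vehicle library and 318 to 452 in the 5+3 libraries, and Meis1 at 81.2 to 125 and 73.5 to 81.0 CPM, so every library held the homeobox genes of this leukaemia. Protein-coding genes with at least 10 counts numbered 12048 to 12503 in vehicle and 12310 to 14171 in 5+3 libraries (means 12240.6 ± 165, SD, n = 5, and 13326.5 ± 776, SD, n = 4; exact two-sided permutation p = 0.0317, adjusted over 7 library measures 0.167, where 0.0159 is the smallest p the design allows). Replicate 4 of the 5+3 group stood apart in its TMM factor, 0.830, against 0.962 to 1.07 in the other 8 libraries. In cells sorted in bulk, fewer cells of a type and less of an RNA per cell cannot be told apart.

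Few mRNAs passed the test after chemotherapy on this diet. With edgeR's quasi-likelihood test and Benjamini-Hochberg adjustment over all 12647 genes, 51 passed an adjusted p of 0.05 (0.403%), of which 11 were higher after 5+3 (0.087%) and 40 lower (0.316%). The lower group held genes of monocytes and macrophages, among them Ly86, Irf8, Ctss and Mpeg1, as well as the stem cell factor receptor Kit and the adhesion genes Itgb7, Itga1 and Evl. The higher group held Ms4a3, Pim1, the p53 target Phlda3, the chaperone Hyou1, the sterol regulator Srebf2 and the acute-phase gene Saa3. In all 51 genes the 4 treated libraries lay wholly above or wholly below the 5 vehicle libraries. Such non-overlap was seen upward in 274 of all tested genes (2.17%) and downward in 344 (2.72%). At an unadjusted p under 0.05, 523 genes were higher (4.14%) and 762 lower (6.03%). The median change over all genes was 0.00 on the log2 scale, with a median standard error of 0.27. The number of genes called rested on single mice: it was 9 without 5+3 replicate 2, 22 without 5+3 replicate 1, 29 and 30 without 5+3 replicates 3 and 4, and 29, 50, 34, 145 and 28 without vehicle replicates 1 to 5. DESeq2 on the same libraries called 271 of the 12647 tested genes, 91 higher and 180 lower. Of the 51 genes, 9 passed in each of the 9 fits that left out 1 library, 12 were lost only without 5+3 replicate 2, where their adjusted p was 0.0537 to 0.0767, and 30 were lost in 2 to 8 of those fits.

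**Figure D1:**
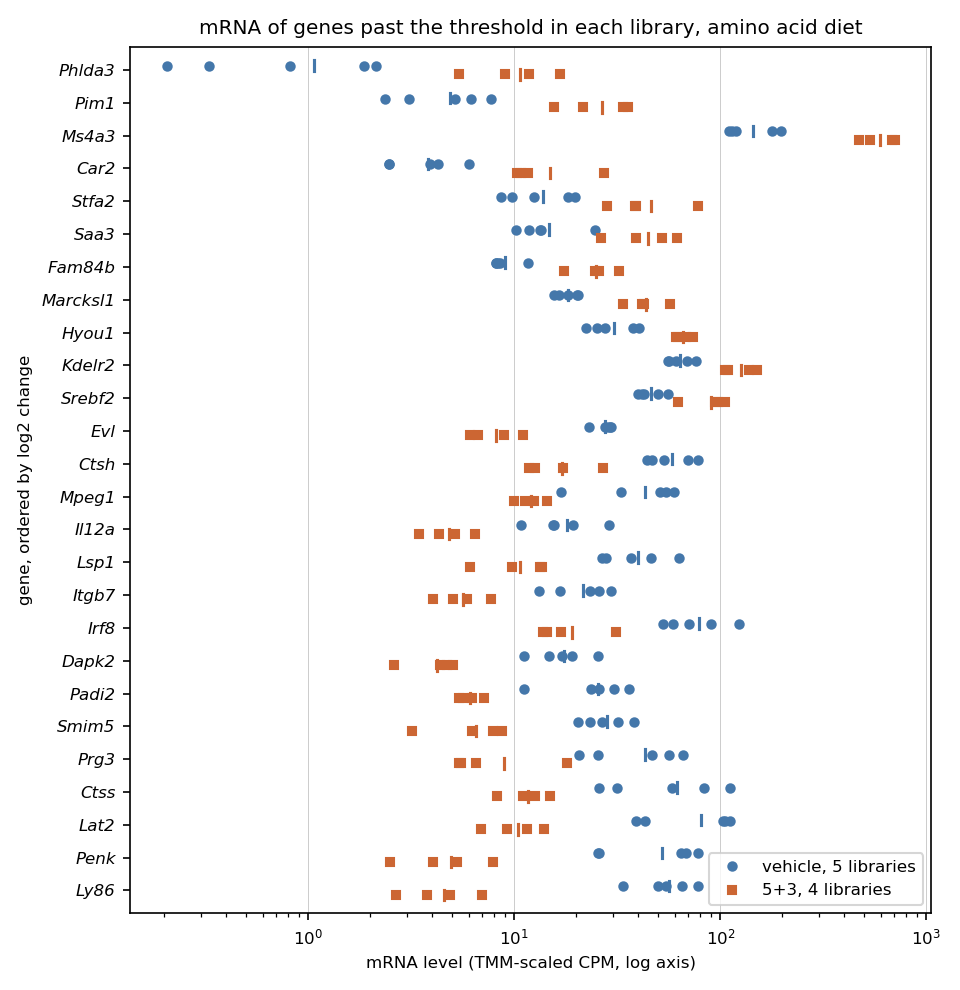
TMM-scaled CPM on a log axis of 26 of the 51 genes that passed the test, with 1 dot per library for the 5 vehicle and 4 5+3 libraries and a bar at each group's mean. In every gene the dots of the groups are apart, by the widest margin in Ly86, where vehicle libraries lie at 33.6 to 77.8 CPM and 5+3 libraries at 2.65 to 6.95.

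Ly86 had the smallest adjusted p of all genes. It encodes MD-1, a secreted partner of the Toll-like receptor relative RP105 on monocytes and B cells, and lies on chr13:37345345-37419036 (GRCm38.p6, ENSMUSG00000021423). Ly86 stood at 77.8, 49.7, 54.6, 33.6 and 64.9 CPM in the vehicle libraries and at 3.79, 2.65, 4.89 and 6.95 CPM in the 5+3 libraries. The lowest vehicle library, replicate 4, was still far above the highest treated one. Its mRNA fell from 56.1 ± 16.6 CPM (SD, n = 5) to 4.57 ± 1.83 CPM (SD, n = 4), a log2 change of -3.62 ± 0.33 (SE; edgeR adjusted p = 0.000296). It passed under each of the 18 alternative settings, with a largest adjusted p of 0.0112. Ribosome footprints, the mRNA fragments protected by translating ribosomes and sequenced from the same lysates, gave a change of -3.67 for Ly86 (edgeR adjusted p = 2.05e-06).

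Irf8, the transcription factor that directs progenitors towards monocytes and dendritic cells, was the only 1 of 27 tested myeloid lineage factors to pass by edgeR (ENSMUSG00000041515). Irf8 stood at 123, 52.6, 59.2, 70.2 and 89.6 CPM in vehicle and 16.9, 13.9, 31.1 and 14.4 CPM in 5+3 libraries. The groups did not overlap, and treated replicate 3 lay highest in its group. The log2 change was -2.05 ± 0.31 (SE; edgeR adjusted p = 0.00864), which was lost without 5+3 replicate 2 (0.054). Footprints of Irf8 fell by 1.80 on the log2 scale. Gata2 had -1.23 (edgeR adjusted p = 0.156) and Klf4, a factor of monocyte maturation, -3.02 (0.172). DESeq2 called 3 of the 27 lower, Irf8, Gata2 and Klf4, and 5 were lower and 2 higher at an unadjusted p under 0.05 by edgeR.

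Ctss encodes cathepsin S, the lysosomal protease that trims the invariant chain of MHC class II, and lies on chr3:95526786-95556405 (ENSMUSG00000038642). Ctss stood at 111, 31.4, 58.2, 25.7 and 83.3 CPM in vehicle and 11.0, 8.24, 12.5 and 14.9 CPM in 5+3 libraries. Vehicle replicates 2 and 4 were the lowest vehicle libraries and still above every treated one. The log2 change was -2.41 ± 0.40 (SE, edgeR adjusted p = 0.0145), and it was lost in 4 of 9 fits without 1 library (largest adjusted p = 0.0696). The promoters of Irf8 and Ctss are shown because both genes are known targets of interferon signalling and both fell. They are the 250 bases before each gene's start from RefSeq, build GRCm38.p6, plus strand, with motif matches in capitals. Both strands were searched from 250 bases before to 50 after the start.
Irf8, chr8:120736108-120736357: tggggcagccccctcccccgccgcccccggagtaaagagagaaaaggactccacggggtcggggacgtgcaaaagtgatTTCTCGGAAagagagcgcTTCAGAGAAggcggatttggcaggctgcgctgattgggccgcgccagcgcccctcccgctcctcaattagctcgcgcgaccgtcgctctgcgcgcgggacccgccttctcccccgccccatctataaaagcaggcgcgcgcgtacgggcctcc
Ctss, chr3:95526536-95526785: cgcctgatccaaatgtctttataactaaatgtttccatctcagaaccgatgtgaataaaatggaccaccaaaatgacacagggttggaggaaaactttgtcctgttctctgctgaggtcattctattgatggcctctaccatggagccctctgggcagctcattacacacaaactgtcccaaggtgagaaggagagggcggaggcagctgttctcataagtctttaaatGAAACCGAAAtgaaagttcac
In Irf8 the capitals mark 2 matches to the gamma-activated site TTCNNNGAA, at 171 to 163 and 153 to 145 bases before the start. Irf8 has 2 promoter entries, and the 1 that held matches is shown. In Ctss they mark 1 match to the interferon-stimulated response element core GAAANNGAAA, at 21 to 12 bases before the start. The gamma-activated site was present in 8.95% of 17138 protein-coding promoters and in 3 of the 32 lower genes with an entry (9.38%: Cyp4f13, Irf8 and Zbtb20). The response element was present in 3.93% of all promoters and in 1 of the 32 (3.12%: Ctss). A PU.1 motif, GAGGAAGT, was also searched and was present in 3.68% of all promoters and 2 of the 32 (6.25%: Ctss and Itgb7). A C/EBP motif, TTGCNNAA, was present in 11.6% and in 4 of the 32 (12.5%). Of 29 monocyte and macrophage genes with an entry, 4 held the response element and 4 the PU.1 motif (13.8% each), and 2 the gamma-activated site (6.9%). No such share says that a factor bound there.

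Of the 38 listed monocyte and macrophage genes 37 were tested, and 6 fell and none rose by edgeR: Ly86, Irf8, Ctss, Ctsh, Mpeg1 and Ms4a4c. DESeq2 called 14 lower and none higher, and 19 were lower and none higher at an unadjusted p under 0.05 by edgeR. Over all tested genes 6.03% were lower and 4.14% higher at that unadjusted p. Of the 37, 33 had a change below 0 and the median was -0.71, against 0.00 over all genes. In 10 of the 37 the treated libraries lay wholly below the vehicle ones, as in 2.72% of all tested genes. The number that fell ranged from 2 without 5+3 replicate 2 to 12 without vehicle replicate 4. Ctsh, cathepsin H, stood at 43.9 to 77.9 CPM in vehicle and 11.8 to 27.0 CPM in 5+3 libraries, a change of -1.77 ± 0.28 (SE; edgeR adjusted p = 0.0105). Mpeg1, the pore-forming perforin-2 of phagocytes, stood at 59.6, 32.9, 50.9, 16.8 and 54.2 CPM against 9.94, 12.4, 11.2 and 14.4 CPM. Its lowest vehicle library, replicate 4, was close to the highest treated one, and its change of -1.84 ± 0.32 (edgeR adjusted p = 0.0223) was lost in 7 of 9 fits without 1 library. Ms4a4c, a four-span membrane protein of monocytes with close relatives that could share its reads, stood at 7.09 to 28.6 CPM against 0.473 to 1.53 CPM. Lyz2, the lysozyme of macrophages, did not pass: it stood at 811, 411, 524, 424 and 879 CPM in vehicle and 244, 142, 99.7 and 286 CPM in 5+3 libraries, which did not overlap (-1.66 ± 0.35, edgeR adjusted p = 0.0589). Lyz2 and its near-identical neighbour Lyz1 may share reads. The list did not move as a block. The macrophage colony-stimulating factor receptor Csf1r had -0.82 (adjusted p = 0.169), and the Fc receptor gene Fcgr3 stood at 277 to 695 CPM in vehicle and 262 to 502 CPM in 5+3 libraries. Tyrobp, an adaptor of myeloid receptors, stood at 961 to 1474 CPM in vehicle and at 808, 773, 706 and 2094 CPM in 5+3 libraries. Ly6c2, the Ly6C antigen of monocytes, stood at 540.1 to 1074 CPM and at 542, 369, 379 and 1997 CPM. In both genes 5+3 replicate 4 was the highest of all 9 libraries and the other 3 treated libraries lay at the bottom of the vehicle range or below it. The summed level of the list was 4491 to 6504 CPM in vehicle and 3653, 3148, 2769 and 7559.6 CPM in 5+3 libraries. Treated replicate 4 was again the highest of all 9 and the other 3 lay below every vehicle library. That library also had the highest sum of mature neutrophil markers, 11767 CPM, and without it 4 monocyte genes passed.

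**Figure D2:**
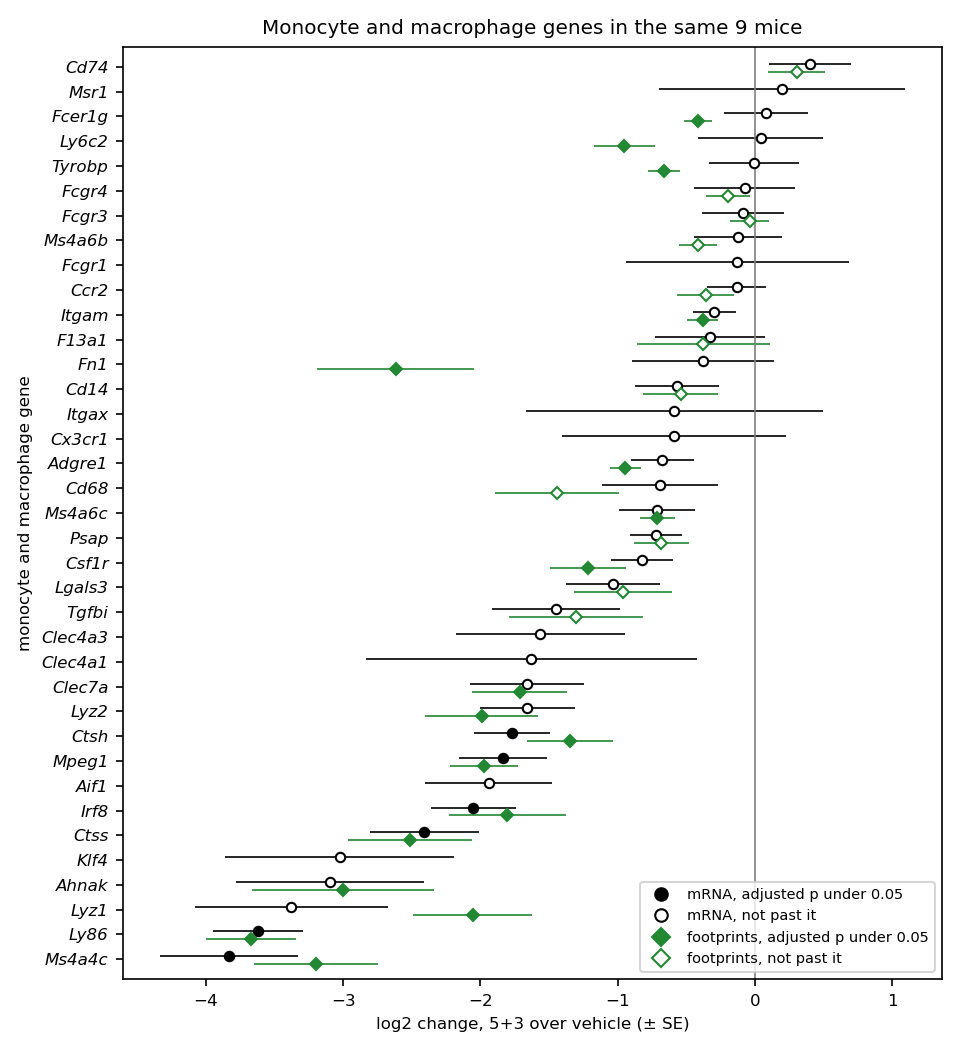
Log2 change, 5+3 against vehicle on the amino acid diet, of the 37 tested monocyte and macrophage genes in mRNA (circles) and, where tested, in footprints of the same mice (diamonds), with standard errors. Filled symbols passed an adjusted p of 0.05; the 6 filled mRNA circles, Ly86 and Ms4a4c lowest, lie at -3.83 to -1.77, while Tyrobp and Ly6c2 lie near 0 in mRNA.

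In footprints 840 of 9418 tested genes passed (8.92%), 387 higher (4.11%) and 453 lower (4.81%), so more genes passed in footprints than in mRNA of the same 9 mice. The median standard error was 0.15 in footprints and 0.27 in mRNA. On simulated counts the tests recovered 81.8% of 2-fold changes in footprints and 37.4% in mRNA. The numbers that passed therefore do not compare the size of the 2 responses. Of the 29 monocyte genes tested in footprints, 18 were lower and none higher, with a median of -0.96. Lyz2 fell by 1.99 in footprints (edgeR adjusted p = 0.0272) and Csf1r fell by 1.22 (0.0291). Tyrobp fell by 0.66 in footprints (edgeR adjusted p = 0.00117) and Ly6c2 by 0.95 (0.0281). A difference between mRNA and footprints of a gene was not tested. Of the 11 mRNAs that rose, 10 were tested in footprints and 7 were higher there and none lower (median 0.91). Of the 40 that fell, 28 were tested and 21 were lower and none higher (median -1.57).

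The 5 vehicle mice differed among themselves in these genes. Vehicle replicates 2 and 4 had the highest vehicle levels of Mpo and Elane, 2 primary granule genes, and the lowest of Ctss, Lat2 and Itga1. Mpo, myeloperoxidase, stood at 2225, 6397, 1669, 11015 and 1864 CPM in vehicle replicates 1 to 5 and Elane, neutrophil elastase, at 6155, 12074, 4076, 11436 and 4759 CPM. The 5+3 libraries held 8878, 5844, 3684 and 5437 CPM of Mpo and 11635, 9453, 4659 and 16561 CPM of Elane, within or above the range of vehicle. Ahnak, a large scaffold protein of the cell cortex, had -3.10 ± 0.69 and did not pass (edgeR adjusted p = 0.0795). Footprints of Ctss stood at 63.8, 30.4, 61.3, 24.4 and 79.7 CPM in vehicle replicates 1 to 5 and at 5.79 to 12.0 CPM in 5+3. Footprints of Ahnak stood at 495, 136, 229, 91.0 and 418 CPM and at 20.7 to 61.6 CPM. Within vehicle both genes were lowest in replicates 2 and 4 in footprints too. Footprints of Mpo, at 8499, 9812, 5884, 8083 and 6897 CPM, were highest in replicates 2 and 1 and so did not set replicates 2 and 4 apart. Footprints of Elane, at 3810, 4760, 2828, 4533 and 3403 CPM in vehicle replicates 1 to 5, were highest in replicates 2 and 4. So were those of Ms4a3, at 22.7, 56.0, 28.3, 52.2 and 28.8 CPM. In the largest component of variance among the 9 mRNA libraries (25.0%), vehicle replicates 1, 3 and 5 lay at 33.5 to 70.8. Vehicle replicates 2 and 4, at -6.66 and -33.8, lay within the 5+3 range of -44.8 to -6.63. In the next largest component (17.96%), vehicle replicates 2 and 4 lay at -53.38 and -33.45, apart from every 5+3 library, all at 3.80 or above. Vehicle replicates 1 and 5, at -30.07 and -7.70, also lay below the 5+3 libraries there, and vehicle replicate 3, at 29.08, lay among them. Vehicle replicates 2 and 4 thus lay with the 5+3 libraries in the largest component only. With vehicle replicate 4 left out, 145 genes passed in place of 51, among them Lyz2 and Ahnak. The labels give these 5 mice as 1 group, and what sets replicates 2 and 4 apart was not tested.

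Kit, the receptor for stem cell factor and a marker of immature myeloid and mast cells, also fell (chr5:75574987-75656722, ENSMUSG00000005672). Kit stood at 71.6, 86.2, 96.6, 96.8 and 68.8 CPM in vehicle and 31.5, 21.4, 33.4 and 40.5 CPM in 5+3 libraries. The lowest vehicle library lay well above the highest treated one. The change was -1.41 ± 0.21 (SE; edgeR adjusted p = 0.00864; 0.0537 without 5+3 replicate 2) in mRNA and -1.20 in footprints (edgeR adjusted p = 2.05e-06). It was the only 1 of 23 tested cytokine and growth factor receptors, and of 14 markers of leukaemic progenitors, to pass by edgeR, where DESeq2 called 2 and 1 lower. Prg3, a proteoglycan of eosinophil granules, fell by 2.28 (edgeR adjusted p = 0.0387), from 20.6 to 65.7 CPM in vehicle to 5.36 to 18.1 CPM. With Kit it made 2 of 9 tested markers of eosinophils, basophils and mast cells (3 lower by DESeq2), whose summed level was 185 to 320 CPM in vehicle and 78.5 to 124 CPM in 5+3 libraries. Kit was the largest part of that sum in vehicle, at 68.8 to 96.8 CPM. At an unadjusted p under 0.05 by edgeR, 4 of the 9 markers of these cells were lower and 1 higher. The higher one, Ms4a2, stood at 0 to 0.410 CPM in vehicle and 0.951 to 2.28 CPM in 5+3 libraries, without overlap. Ms4a2 passed the count filter only because of the 5+3 libraries, so a rise was partly built in. The part of such cells in these changes was not tested.

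Of 30 tested actin and adhesion genes 3 fell by edgeR, Evl, Itgb7 and Lsp1, and none rose (median -0.26), with 4 lower by DESeq2. Evl, which promotes actin filament growth, stood at 29.2, 29.4, 27.5, 22.9 and 28.4 CPM in vehicle and 6.12, 8.87, 6.66 and 11.0 CPM in 5+3 libraries. It varied little within vehicle, and every treated library was lower (-1.75 ± 0.23, edgeR adjusted p = 0.00381). Itgb7, the integrin β7 chain that pairs with α4 or αE, fell from 13.2 to 29.4 CPM to 4.02 to 7.66 CPM (-1.94 ± 0.30, edgeR adjusted p = 0.00944). Lsp1, an actin-binding protein of leukocytes, fell by 1.90 (0.0145). Outside the list, Itga1, the α1 chain of a collagen receptor, stood at 18.2, 2.32, 12.7, 1.64 and 11.4 CPM in vehicle and 0.291, 0.354, 0.885 and 1.22 CPM in 5+3 libraries. Vehicle replicates 2 and 4 were again low, and the change of -3.76 ± 0.74 (edgeR adjusted p = 0.0436) was lost in 7 of 9 fits without 1 library. In footprints 12 of the list were lower and 1 higher.

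Other genes fell that stood alone in their list or in no list. Lat2, an adaptor of myeloid and B cell receptors, stood at 105, 43.1, 103, 38.9 and 111 CPM in vehicle and 6.88, 9.20, 13.9 and 11.5 CPM in 5+3 libraries (-2.95 ± 0.36, edgeR adjusted p = 0.00333). Penk, the enkephalin precursor, stood at 68.0, 25.7, 77.5, 25.6 and 64.3 CPM and 7.90, 2.50, 4.01 and 5.28 CPM (-3.40 ± 0.43, 0.00355). In both genes vehicle replicates 2 and 4 lay lowest in their group, with no overlap of the groups. Cirbp, a cold-induced RNA-binding protein, fell by 1.68 (adjusted p = 0.0175), from 78.2 to 218 CPM to 40.3 to 60.1 CPM. Padi2, which turns arginine to citrulline in proteins, fell by 2.06 (0.00864), Il12a, the p35 chain of interleukin 12, by 1.89 (0.0157) and the death-associated kinase gene Dapk2 by 2.05 (0.00864). Smim5, a small membrane protein, fell by 2.11 (0.00864), from 20.3 to 37.9 CPM to 3.20 to 8.66 CPM. Cyp4f18, a cytochrome of leukotriene breakdown in neutrophils, fell by 1.61 (0.00373) from 62.3 to 99.5 CPM to 22.9 to 30.8 CPM. Ifi209, of an interferon-inducible family whose clustered copies can share reads, fell by 3.20 (edgeR adjusted p = 0.0018). It was the only 1 of 47 tested interferon-stimulated genes to pass by edgeR, where DESeq2 called 6 lower and none higher. Their median was -0.27, and Slfn5 had -1.63 (edgeR adjusted p = 0.0831) and Ifi27l2a -2.26 (0.114).

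The other lower genes had changes of -3.61 to -0.95. Pid1, an adaptor that dampens insulin signalling, fell by 3.61 (edgeR adjusted p = 0.00864), but stood at only 2.01 to 10.1 CPM in vehicle and 0.303 to 0.639 CPM in 5+3 libraries. Gpr183, the oxysterol receptor EBI2 that guides leukocytes, was likewise low, at 3.25 to 10.4 CPM and 0.986 to 1.51 CPM (-2.28 ± 0.41, 0.029). Plaur, the urokinase receptor of migrating myeloid cells, stood at 95.9, 124, 121, 96.4 and 162 CPM and 69.5, 51.3, 38.8 and 58.3 CPM (-1.14 ± 0.22, edgeR adjusted p = 0.038). Ppcdc, a decarboxylase of coenzyme A synthesis, stood at 137 to 358 CPM and 79.2 to 105 CPM (-1.36 ± 0.25, 0.03). Unc45a, a chaperone of myosin, stood at 107 to 165 CPM and 61.4 to 71.3 CPM (-1.01 ± 0.18, 0.0209), and Nln, the peptidase neurolysin, at 63.0 to 90.7 CPM and 32.1 to 39.4 CPM (-1.08 ± 0.17, 0.0132). The groups did not overlap in any of these 6 genes. Sh2d3c, Bex6, Zkscan17, Degs2, Dpep2, Tns4, Ppfia4, Chst13, Tle6 and 2210010C04Rik also fell.

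Ms4a3 led the higher group in adjusted p. This four-span membrane protein marks granulocyte and monocyte progenitors, and the gene lies on chr19:11629499-11640851 (ENSMUSG00000024681). Ms4a3 stood at 119, 196, 114, 178 and 110.4 CPM in vehicle and 532, 704, 469 and 679.6 CPM in 5+3 libraries. Each treated library held more than any vehicle library, and vehicle replicates 2 and 4 were the highest in vehicle. Its mRNA rose 4.15-fold (log2 2.05 ± 0.24, SE; edgeR adjusted p = 0.00241), from 144 ± 40.5 CPM (SD, n = 5) to 596 ± 114 CPM (SD, n = 4), and its footprints rose by 2.04. It was the only 1 of 18 tested primary granule genes to pass by edgeR, and DESeq2 called 1 higher and 1 lower. The list's median was 0.32, with Prss57 at 0.62 (adjusted p = 0.207), and Mpo and Elane overlapped between the groups, as given above. Ms4a3 passed under all 18 alternatives, as did Ly86, Lat2 and Cyp4f18.

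Pim1, a serine/threonine kinase and a STAT5 target that supports survival of myeloid cells, rose 5.43-fold (chr17:29490785-29496111, ENSMUSG00000024014). Pim1 stood at 6.13, 7.70, 3.08, 2.36 and 5.18 CPM in vehicle and 21.5, 33.5, 35.6 and 15.6 CPM in 5+3 libraries. The lowest treated library held more than the highest vehicle one. The log2 change was 2.44 ± 0.36 (SE; edgeR adjusted p = 0.00864; 0.0537 without 5+3 replicate 2), and footprints rose by 2.44. Of 16 tested Pim kinase and STAT5 feedback genes only Pim1 passed by edgeR (median 0.14) and DESeq2 called 2 higher, and Socs2, a feedback inhibitor of STAT5 signalling, had 3.74 ± 0.85 (edgeR adjusted p = 0.0839). Marcksl1, an actin-linked substrate of protein kinase C, rose by 1.27 ± 0.20 (edgeR adjusted p = 0.0102), from 15.5 to 20.3 CPM to 33.8 to 57.0 CPM. Fam84b, on which less is known, rose by 1.48 ± 0.23 (0.0105), from 8.16 to 11.7 CPM to 17.5 to 32.1 CPM.

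Among 28 tested p53 targets 1 rose and none fell, with a median of 0.17. That gene was Phlda3, an inhibitor of AKT at the membrane (chr1:135766085-135769134, ENSMUSG00000041801). Phlda3 stood at 1.86, 0.813, 0.328, 0.205 and 2.14 CPM in vehicle and 8.97, 16.6, 11.7 and 5.36 CPM in 5+3 libraries. All treated libraries were above all vehicle libraries. The log2 change was 3.34 ± 0.61 (SE; edgeR adjusted p = 0.029), and 5 of 9 fits without 1 library lost it. Cdkn1a, which encodes the cell cycle inhibitor p21, stood at 46.8, 27.1, 19.6, 31.1 and 74.8 CPM in vehicle and 126, 158, 88.2 and 97.0 CPM in 5+3 libraries. These did not overlap, but vehicle replicate 5 was high for its group, and the change of 1.56 ± 0.33 did not pass (edgeR adjusted p = 0.0642; 0.0190 without vehicle replicate 5). Mdm2, the ubiquitin ligase that degrades p53, stood at 35.4, 36.7, 32.8, 52.4 and 41.4 CPM against 63.4, 49.0, 41.7 and 44.5 CPM. Its groups overlapped (0.32 ± 0.20, edgeR adjusted p = 0.614). Ccng1, a cyclin induced by p53, had 1.07 ± 0.22 (0.0535) and Trp53inp1 1.16 ± 0.31 (0.169), both without overlap. In 5 of the 28 targets all treated libraries were above all vehicle libraries, and in 1 all were below. Over all tested genes these shares were 2.17% and 2.72%. DESeq2 called 4 of the 28 higher. By edgeR no gene passed among 36 tested of DNA damage signalling and repair (median -0.03), 15 of cytarabine handling (0.10), 15 of doxorubicin targets and efflux (0.16) or 16 of the Bcl2 family (0.05), and DESeq2 called none in these lists either. At an unadjusted p under 0.05 by edgeR, 2, 5, 0 and 3 of their members passed, against 4.14% higher and 6.03% lower over all tested genes. Dck, the kinase that activates cytarabine, had 0.60 (adjusted p = 0.323).

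The unfolded protein response refills the endoplasmic reticulum with chaperones, and of its 26 tested genes 1 rose and none fell by edgeR, with 2 higher by DESeq2. The change was above 0 in 25 of the 26 (median 0.29), and their summed level overlapped, at 5518 to 9423 CPM in vehicle and 8374 to 9214 CPM in 5+3 libraries. Hyou1, a chaperone of the endoplasmic reticulum, stood at 27.4, 25.2, 37.8, 40.1 and 22.3 CPM in vehicle and 60.9, 73.7, 67.8 and 62.0 CPM in 5+3 libraries. The treated libraries were all higher and close to each other (1.11 ± 0.20, edgeR adjusted p = 0.0296). Kdelr2, which returns escaped chaperones to the endoplasmic reticulum, rose by 0.98 ± 0.18 (0.0272), from 55.7 to 76.1 CPM to 105 to 150.4 CPM. Hyou1 was lost in 7 and Kdelr2 in 6 of 9 fits without 1 library. Creld2, a protein of the endoplasmic reticulum stress response, stood at 172, 176, 145, 139.8 and 156 CPM and 223, 246, 298 and 237 CPM. Its groups did not overlap, but the change of 0.67 ± 0.17 did not pass in mRNA (adjusted p = 0.125), and it did in footprints (0.86, edgeR adjusted p = 0.000551). In footprints 13 of 25 tested genes of the list were higher and 1 lower. Its promoter is shown because it carries the element by which the unfolded protein response is known to act, in capitals on the minus strand, drawn as above.
Creld2, chr15:88819396-88819645: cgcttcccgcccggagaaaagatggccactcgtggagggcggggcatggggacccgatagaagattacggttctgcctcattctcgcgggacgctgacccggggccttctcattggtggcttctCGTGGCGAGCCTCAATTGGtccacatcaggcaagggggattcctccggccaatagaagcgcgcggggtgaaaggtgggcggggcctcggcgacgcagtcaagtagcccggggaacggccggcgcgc
The capitals, 126 to 108 bases before the start, read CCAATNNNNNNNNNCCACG on the other strand. This element was found in 29 of 17138 promoters (0.169%) and in 9 of the 23 listed genes with an entry (39.1%), among them Calr, Canx, Hspa5 and Hsp90b1. None of the 39 called genes with an entry, 32 lower and 7 higher, held it.

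Srebf2, the transcription factor that drives cholesterol synthesis, rose by 0.97 ± 0.19 (edgeR adjusted p = 0.0436), from 40.0 to 55.4 CPM in vehicle to 62.2 to 105 CPM in 5+3 libraries, where replicate 4 was the lowest. It was lost in 7 of 9 fits without 1 library and was the only 1 of 24 tested genes of cholesterol synthesis to pass by edgeR, with 2 higher by DESeq2. Of the 24, 22 were above 0 (median 0.47), with Insig1 at 0.96 (adjusted p = 0.239) and Mvd at 0.70 (0.300), and 13 were higher in footprints. Of 35 tested lysosome and autophagy genes 2 fell by edgeR (median -0.03) and 4 by DESeq2. Of 12 tested genes of MHC class II presentation 1 fell by edgeR (median -0.17), and DESeq2 called 1 higher and 1 lower. Ctss had the lowest change in both lists. The lists that follow held no call by edgeR in mRNA. The median was 0.39 over 20 tested cytosolic heat shock genes, of which 6 were higher at an unadjusted p under 0.05 by edgeR and 2 by DESeq2, with Hsph1, a co-chaperone of Hsp70, at 0.95 ± 0.23 (edgeR adjusted p = 0.108). It was 0.25 over 28 targets of the amino acid stress factor ATF4, of which 4 were higher at that unadjusted p and 2 by DESeq2, with Nupr1 at 1.23 ± 0.26 (0.0610). It was 0.36 over 22 genes of glycolysis, with 5 higher and 1 lower at that unadjusted p and 3 and 1 by DESeq2. Ldha, lactate dehydrogenase A, stood at 612, 717, 529.9, 918 and 568 CPM and 1386, 1264, 1223 and 1377 CPM, without overlap but not past the test (0.97 ± 0.23, edgeR adjusted p = 0.100). None of the 23 tested genes of branched-chain amino acid breakdown passed (median -0.08). At an unadjusted p under 0.05 by edgeR 3 were lower, and DESeq2 called 1 lower. Bckdha, a subunit of its rate-setting enzyme, had -0.84 ± 0.20 (0.103). None of 46 S phase genes (median 0.10), 50 of G2 and mitosis (0.16), 79 ribosomal protein genes (0.16) or 44 of oxidative phosphorylation (0.12) passed by edgeR. At an unadjusted p under 0.05, 2, 5, 1 and 0 of them were higher and none lower, and DESeq2 called 1, of G2 and mitosis. In footprints 11 of the S phase and 20 of the G2 and mitosis genes were higher and none lower. In the MLL-AF9 programme none of 20 tested genes passed by edgeR (median -0.27), 5 were lower at an unadjusted p under 0.05 and 1 was by DESeq2. Zeb2, a transcription factor this leukaemia is known to need, had -0.68 (adjusted p = 0.254).

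**Figure D3:**
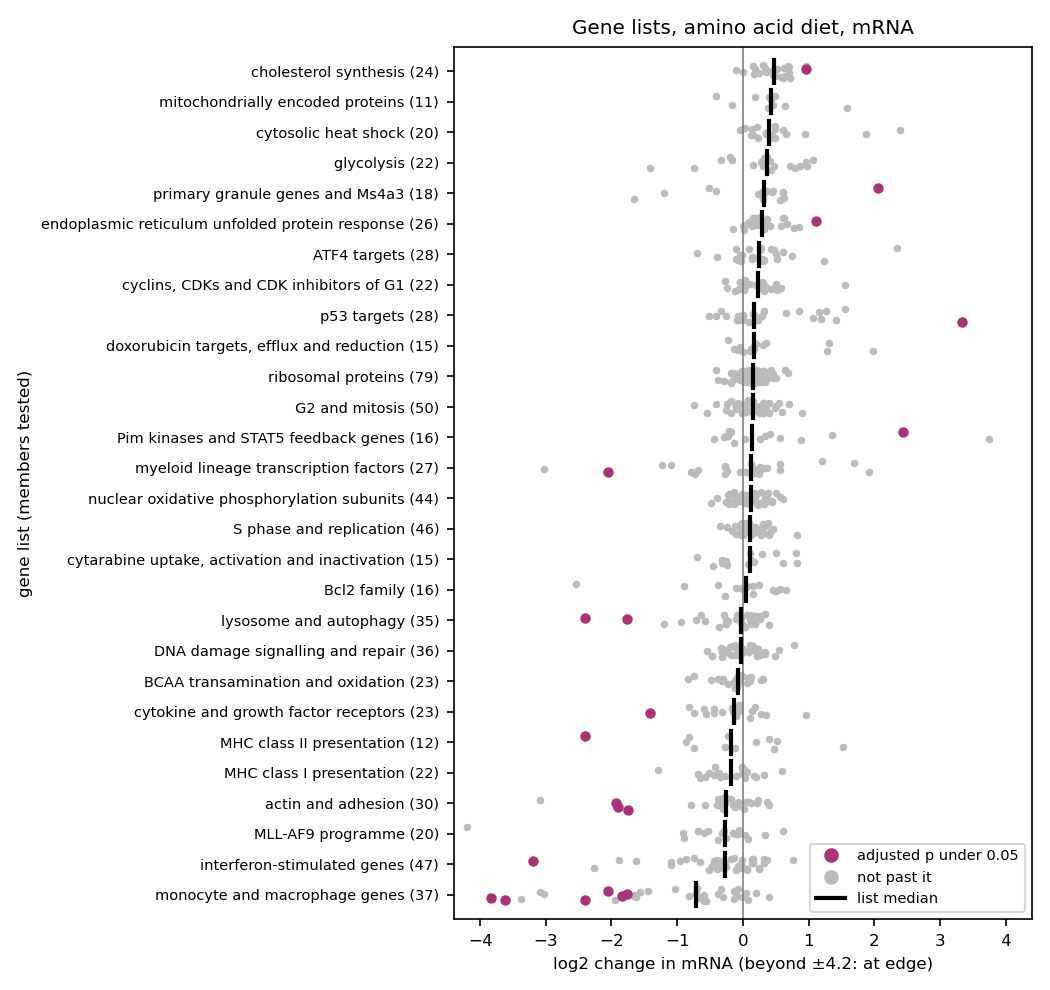
Log2 change in mRNA, 5+3 against vehicle on the amino acid diet, of each tested member of 28 lists (dots), with the list's median as a black bar and genes that passed the test in purple. Values beyond 4.2 in size are drawn at the edge; the monocyte and macrophage list has the lowest median, -0.71, and its 6 purple dots lie at -3.83 to -1.77.

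Markers of other marrow cells were read beside these results. Of 11 lists the summed levels overlapped between groups in 8. The stroma and bone list was apart and higher after 5+3, at 28.0 to 42.3 CPM in vehicle and 48.5 to 52.2 CPM in 5+3 libraries, with none of 13 tested genes past edgeR's test, 5 higher at an unadjusted p under 0.05 and none by DESeq2. Runx2 made the largest part of that sum and overlapped, at 17.6 to 21.2 CPM in vehicle and 16.3 to 25.7 CPM in 5+3 libraries. The B and plasma cell list was apart and lower, at 57.5 to 75.0 and 31.4 to 56.0 CPM, with none of 11 past edgeR's test and 2 lower both at an unadjusted p under 0.05 and by DESeq2, and the third was the eosinophil, basophil and mast cell list given above. Cd79b made the largest part of the B and plasma cell sum and overlapped, at 29.9 to 61.8 CPM in vehicle and 20.3 to 38.3 CPM in 5+3 libraries. The erythroid sum was 19.1 to 42.7 CPM in vehicle and 42.4 to 198 CPM in 5+3 libraries. Car2, carbonic anhydrase 2, an erythroid marker also made by osteoclasts, stood at 4.26, 2.46, 6.01, 3.91 and 2.46 CPM in vehicle and 11.7, 10.8, 10.2 and 27.2 CPM in 5+3 libraries. Treated replicate 4 was the highest, and Car2 was the only 1 of 12 tested erythroid genes to pass by edgeR (1.97 ± 0.37, edgeR adjusted p = 0.0351). DESeq2 called 4 of the 12 higher, and 6 were higher at an unadjusted p under 0.05 by edgeR. Haemoglobin genes took 0.00107% to 0.00322% of protein-coding counts in vehicle and 0.00231% to 0.0127% after 5+3 (exact two-sided permutation p = 0.0476, adjusted 0.167). T and NK cell markers summed to 66.5 to 82.4 CPM in vehicle and 63.6 to 164 CPM in 5+3 libraries, and none of 12 passed by edgeR, with 1 higher both at an unadjusted p under 0.05 and by DESeq2. Their defining gene Cd3e was at 0 to 0.181 CPM in vehicle and 0.273 to 1.65 CPM in 5+3 libraries, the only 1 of the 12 without overlap. Cd3e passed the count filter only through the 5+3 libraries, so a rise without overlap was partly built in. Nkg7 made most of the T and NK sum, at 60.6 to 77.0 CPM in vehicle and 52.4 to 150.7 CPM in 5+3 libraries. Of the 12 T and NK markers, 11 had a change above 0 (median 0.94). The mature neutrophil sum was 3422 to 4883 CPM in vehicle and 3682 to 11767 CPM in 5+3 libraries. S100a8, a calprotectin chain of neutrophils, stood at 1539, 1101, 861, 886 and 1170.1 CPM and 2610.2, 2083, 1435 and 4753 CPM, with 1 treated library below the top of vehicle (1.29 ± 0.34, edgeR adjusted p = 0.149). Stfa2, a neutrophil cysteine protease inhibitor with near-identical copies, rose by 1.74 ± 0.32 (0.0296), the only 1 of 18 tested neutrophil genes to pass by edgeR. DESeq2 called 6 of the 18 higher and 1 lower, and 7 were higher and 2 lower at an unadjusted p under 0.05 by edgeR. Resident macrophage markers summed to 106 to 197 and 135 to 174 CPM, and none of 13 passed by edgeR, with 6 higher at an unadjusted p under 0.05 and 2 by DESeq2. Vcam1 made most of that sum, at 85.4 to 158 CPM in vehicle and 89.4 to 128 CPM in 5+3 libraries. Of the 13 macrophage markers, 12 had a change above 0 (median 1.03). Many markers in these 2 lists lay near the floor. Axl, Spic, Cd163, Mertk, Mrc1 and Siglec1 reached at most 1.93 CPM, and Cd3d, Cd3g and Cd8b1 at most 1.20 CPM. Protein-coding genes with at least 1 count numbered 14164 to 15628 in vehicle and 14275 to 18381 in 5+3 libraries. Whether low genes rose in general with that number was not tested, so these sign counts do not measure cells. In 4 of them all treated libraries lay above all vehicle ones, as in 2.17% of all tested genes. Siglec1 was among these, at 0 to 0.109 CPM in vehicle and 0.404 to 1.01 CPM in 5+3 libraries. It too passed the count filter only through the 5+3 libraries. The part of these cells in the changes of Car2, Stfa2, Saa3 and the monocyte genes was not tested.

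**Figure D4:**
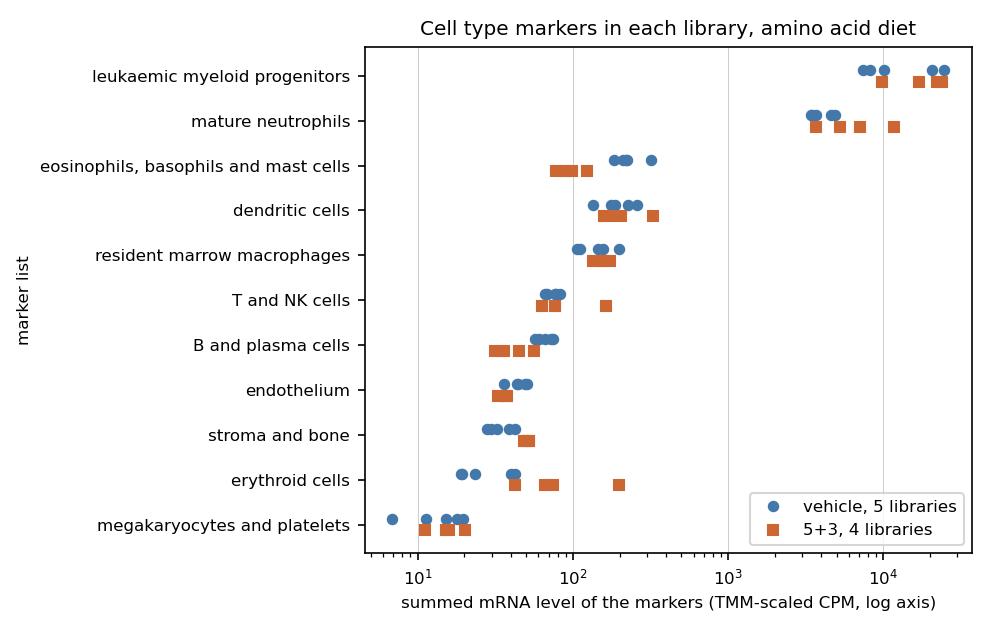
Summed TMM-scaled CPM, on a log axis, of 11 lists of cell type markers in each of the 5 vehicle and 4 5+3 mRNA libraries. The leukaemic progenitor list has the highest vehicle levels, 7369.6 to 24758 CPM in vehicle and 9799 to 23925 CPM in 5+3 libraries, and the erythroid list has its highest value, 198 CPM, in a 5+3 library.

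Saa3, serum amyloid A3, is made by macrophages and stromal cells in inflammation (chr7:46711998-46719615, ENSMUSG00000040026). Saa3 stood at 13.5, 24.6, 13.3, 10.2 and 11.8 CPM in vehicle and 38.9, 51.9, 26.2 and 61.7 CPM in 5+3 libraries. Vehicle replicate 2 came close to treated replicate 3 without overlap. The change was 1.60 ± 0.29 (edgeR adjusted p = 0.0296), lost in 6 of 9 fits without 1 library, and footprints rose by 1.55 (0.0139).

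The same chemotherapy was given to 7 other mice on a diet free of branched-chain amino acids (BCAA-free), beside 5 vehicle mice on that diet, which share no library with the present 9. There 984 of 12524 tested genes passed (7.86%), 499 higher (3.98%) and 485 lower (3.87%). Of the 11 genes that rose on the amino acid diet, Phlda3, Pim1, Ms4a3 and Marcksl1 were also higher there and Saa3 was lower. Phlda3 changed by 2.65 (edgeR adjusted p = 0.0044), Pim1 by 1.88 (0.0209), Ms4a3 by 1.62 (0.016) and Marcksl1 by 1.29 (0.0165) on that diet. Of the 40 that fell, 8 were lower there (Itga1, Ccdc154, Mpeg1, Itgb7, Il12a, Prg3, Lsp1 and Ctsh) and none higher. Their median change on that diet was -0.76. Itga1 changed by -3.39 there (0.0275), Itgb7 by -2.25 (0.0122) and Mpeg1 by -2.08 (0.0366). Ly86, with -0.72 (adjusted p = 0.42), Kit, with -0.40 (0.348), and Cirbp, with 0.38 (0.487), did not pass on the BCAA-free diet. The test of the difference between the diets, with all 21 mRNA libraries in 1 fit, did not separate Ly86 (2.93, BCAA-free minus amino acid diet; edgeR adjusted p = 0.12), Kit (1.03; 0.247) or Cirbp (2.08; 0.0649). That test called 32 of 13992 genes (0.229%), 8 with a higher (0.0572%) and 24 with a lower (0.172%) change on the BCAA-free diet. Of the 51 genes only Saa3 was among them: it fell by 2.55 on the BCAA-free diet (edgeR adjusted p = 0.00929), a difference of -4.11 (0.000514).

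**Figure D5:**
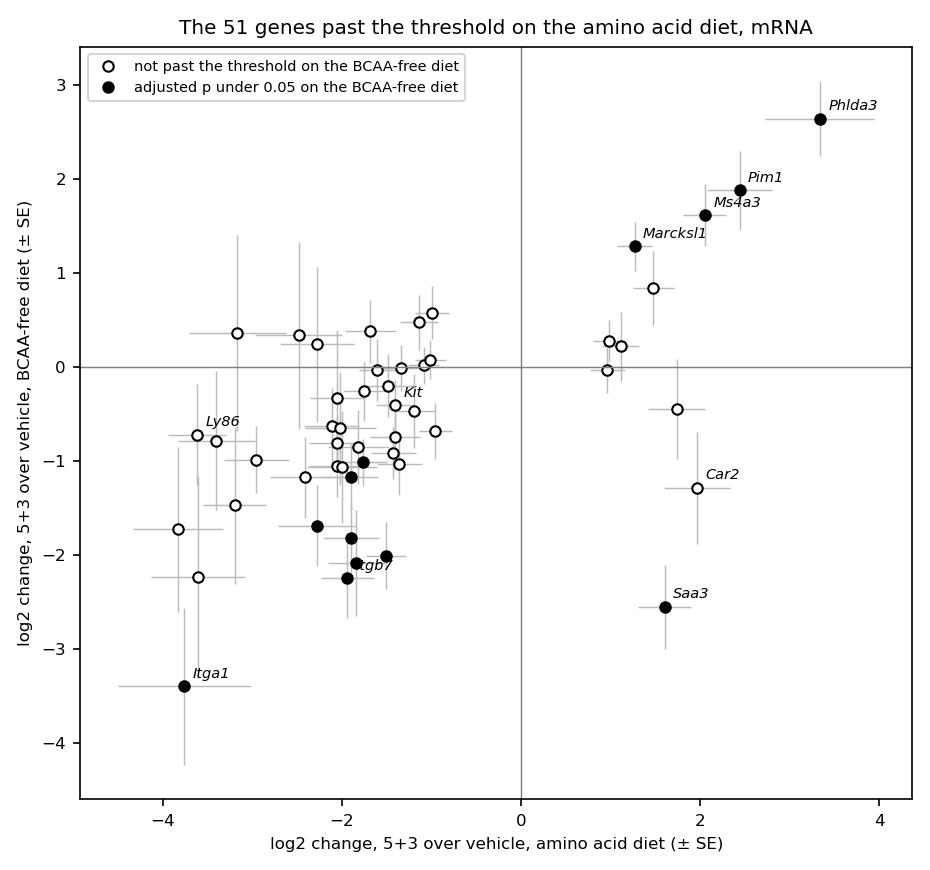
Log2 change of the 51 called genes on the amino acid diet (horizontal axis) and on the BCAA-free diet (vertical axis), with standard errors in both directions. Of the 51 genes 39 have the same sign on both diets and 46 lie nearer 0 on the BCAA-free diet. The genes were chosen for passing on the amino acid diet, which favours larger changes there, so the count of 46 does not measure a diet effect. Saa3, at 1.60 and -2.55, lies in the opposite quadrant.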

How the data were processed

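The authors deposited raw counts of reads per gene, whole numbers by their values, for 21 mRNA and 21 footprint libraries. Build GRCm38 (mm10) and the tools featureCounts, STAR, Bowtie2, cutadapt and SAMtools are named in the submitters' processing notes, without versions. The sources used here give neither annotation nor strand setting, so a gene's reads cannot be told apart from those of an overlapping or antisense gene. Of 55487 gene identifiers, 55141 matched a symbol and 21396 were protein coding in RefSeq (GRCm38.p6).

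Counts of protein-coding genes were fitted with edgeR 4.0.16 (R 4.3.3): filterByExpr (minimum count 10, minimum total 15), TMM scaling and the robust quasi-likelihood test with Benjamini-Hochberg adjustment and a threshold of 0.05. Each comparison used only its own groups, and the test between diets used all 4. Levels are TMM-scaled CPM. All adjusted p-values are edgeR's unless another tool is named. Library measures were compared by exact permutation over libraries. The labels call replicates biological, and every pair of the 9 libraries that shared a group was further apart than sampling noise (chi-square per degree of freedom 42.5 to 532). Replicate numbers did not pair the groups (correlations of deviations -0.30 to 0.35).

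On simulated counts (12364 genes) the test of this comparison recovered 37.4% of 2-fold and 90.5% of 4-fold changes, and 2.38% of its calls were false. These counts were drawn gene by gene, without differences between mice that many genes share. The rates need not hold for the real libraries or the 51 calls. Among called genes with a mean of at least 10 CPM, the text names up to 15 with the highest and 15 with the lowest change. Only 11 genes were called higher in all, so the higher side falls short of 15. Also named are up to 4 members of each list with the smallest p, and Cdkn1a and Mdm2. Other called genes and the values of Hoxa9, Meis1, Tyrobp, Ly6c2, Fcgr3, Mpo, Elane, Cd3e and other single cell type markers were picked with their values in view. A few list members are not reported here. The comparison, its lists and tests were chosen with earlier results of these data known. Alternatives were DESeq2 1.42.0, voom in limma 3.58.1, other scaling, filters, gene sets and depth, a replicate block, 1 fit of all groups and leaving out each library.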

Additional observations from a re-analysis of the deposited data

Results flagged for a closer look

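Single libraries stood apart from their group in 13 of 212 groups of 4 or 5 values examined by Dixon's test, and chance alone gives about 1 in 20. Among vehicle libraries, replicate 4 was lowest for Evl (22.9 CPM, others 27.5 to 29.4) and Slfn5 (3.50 CPM, others 8.00 to 8.68). It was highest for Fam84b (11.7 CPM), for the mitotic kinase gene Bub1 (57.8 CPM, others 25.4 to 34.0) and for Dck (31.7 CPM, others 21.0 to 22.5). Vehicle replicate 2 was highest for Saa3 (24.6 CPM, others 10.2 to 13.5). Among 5+3 libraries, replicate 4 was highest for Car2 (27.2 CPM, others 10.2 to 11.7) and Prg3 (18.1 CPM, others 5.36 to 6.52), and lowest for 2210010C04Rik (0.740 CPM). It also had the fewest protein-coding genes with at least 1 count, 14275 against 17799 to 18381. Replicate 1 was highest for Cyp4f18 (30.8 CPM) and lowest for Nln (32.1 CPM, others 38.9 to 39.4), and replicate 3 was highest for Gata2 (13.4 CPM, others 10.6 to 11.1).

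The change after 5+3 differed between the diets, by edgeR's test over all 4 mRNA groups, for 7 of the genes described or examined as markers, each lower on the BCAA-free diet. The difference on the log2 scale was -4.11 for Saa3 (adjusted p = 0.000514), -3.45 for S100a8 (0.00731), -3.37 for Wfdc21 (0.00576), -3.23 for Retnlg (0.0425) and -2.27 for Lcn2 (0.0218). The first is an acute-phase gene and the others are genes of neutrophils. It was -7.54 for Hbb-bt (2.56e-05) and -6.71 for Hbb-bs (9.52e-05), both β-globin genes. The part of neutrophils and red cells in the sorted samples in these differences was not tested.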

How the results depend on the processing

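In the amino acid comparison 51 genes passed. The count was 271 with DESeq2, 86 with no filter on low counts, 20 with all 4 groups in 1 fit, and 9 to 145 without 1 library. It was within 1.5 times of 51 with voom, median-ratio scaling, a mean of at least 10 CPM, all gene types and thinning to equal depth. Replicate numbers of the labels did not pair the mice, and with the replicate block 10 genes passed. On the BCAA-free diet 984 genes passed, 1819 with DESeq2, 1744 with all 4 groups in 1 fit and 109 to 1508 without 1 library. The difference between diets had 32 genes, 167 with DESeq2, 14 with no filter, 16 with all gene types, 13 with the replicate block and 9 to 38 without 1 library. Footprints had 840, and 446 to 969 without 1 library. Among library measures, the difference of 5+3 minus vehicle in ribosomal protein share of counts was 0.279 percentage points (-0.538 to 1.04 without 1 library), in the share of the 50 top genes 0.124 (-0.568 to 0.473) and in the histone share -0.00125 (-0.00431 to 0.00587), so none of these has a settled sign. The cause was not tested. With 4 against 5 mice, changes near 2-fold were mostly below what the test recovered on simulated counts.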
